A study of Mus musculus with 9 samples.

Results

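The genes described here carry bile acids across the enterocyte or sense them through the nuclear receptor FXR. They are Slc10a2, Slc51a, Slc51b, Fabp6, Abcc2, Abcc3, Nr1h4, Nr0b2 and Fgf15, 9 genes picked by symbol out of 54532 in a table of read counts. RNA had been sequenced from the duodenum of 5 male Pla2g12b mutant mice and 4 WT males, age matched. Both genotypes were C57BL/6 and ate regular chow for 3 months. PLA2G12B helps to load lipoproteins with lipid, and the series is about its part in the absorption of fat. The series title names a dominant negative mutation, C129Y, but the labels do not say which allele these mutants carry or how old the mice were. No sorting of cell types is described.

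Bile acids are made from cholesterol in the liver, stored in the gallbladder and released into the duodenum, where they emulsify fat. In the ileum the sodium-coupled carrier SLC10A2 (also called ASBT) takes them up, FABP6 binds them in the cytosol, and the SLC51A-SLC51B heterodimer (OST alpha and OST beta) passes them across the basolateral membrane towards the portal blood. ABCC2 (MRP2) pumps conjugated organic anions out through the apical membrane, and ABCC3 (MRP3) through the basolateral one. FXR, the product of Nr1h4, is activated by bile acids and pairs with RXR. In the intestine it induces Fgf15, a hormone that lowers bile acid synthesis in the liver, and Nr0b2, whose product SHP is a corepressor. It also induces Fabp6, Slc51a and Slc51b.

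The stretches just before the transcription starts are shown for 5 of these genes, because the exporter subunits changed together and the others carry matches to binding motifs of their known regulators. RefSeq promoter windows on GRCm38.p6 were at hand for 7 of the 9 genes; those of Fgf15 and Abcc3 were not used. The 250 bases before the RefSeq start lie at chr16:32487880-32488129 for Slc51a, chr9:65422774-65423023 for Slc51b, chr11:43601563-43601812 for Fabp6 and chr8:5105288-5105537 for Slc10a2, all on the minus strand. For Nr0b2 they lie at chr4:133553126-133553375 on the plus strand. These starts are not the gene ends of the count table given further down: the windows of Slc51b, Slc10a2 and Abcc2 lie partly, and that of Nr1h4 wholly, inside the table's gene, and all distances below are from the RefSeq start. Each sequence is written along the gene's strand, and capitals mark every motif match on either strand.
Slc51a: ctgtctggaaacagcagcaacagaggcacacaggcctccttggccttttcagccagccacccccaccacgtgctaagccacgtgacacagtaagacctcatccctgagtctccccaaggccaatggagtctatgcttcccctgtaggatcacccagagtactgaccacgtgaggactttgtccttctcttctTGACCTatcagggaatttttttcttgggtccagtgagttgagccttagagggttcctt
Slc51b: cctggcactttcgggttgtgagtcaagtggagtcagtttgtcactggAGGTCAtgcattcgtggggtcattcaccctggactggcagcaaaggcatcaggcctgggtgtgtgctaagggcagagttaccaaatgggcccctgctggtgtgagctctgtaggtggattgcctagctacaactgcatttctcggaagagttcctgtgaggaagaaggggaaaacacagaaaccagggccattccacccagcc
Fabp6: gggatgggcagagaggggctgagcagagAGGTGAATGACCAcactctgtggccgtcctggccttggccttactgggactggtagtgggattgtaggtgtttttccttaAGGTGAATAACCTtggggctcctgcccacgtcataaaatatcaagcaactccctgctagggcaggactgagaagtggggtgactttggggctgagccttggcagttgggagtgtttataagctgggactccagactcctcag
Nr0b2: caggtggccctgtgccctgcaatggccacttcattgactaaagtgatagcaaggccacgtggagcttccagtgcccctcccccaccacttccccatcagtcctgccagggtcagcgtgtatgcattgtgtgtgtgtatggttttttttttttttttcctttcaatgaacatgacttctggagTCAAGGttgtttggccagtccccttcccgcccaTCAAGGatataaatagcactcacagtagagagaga
Slc10a2: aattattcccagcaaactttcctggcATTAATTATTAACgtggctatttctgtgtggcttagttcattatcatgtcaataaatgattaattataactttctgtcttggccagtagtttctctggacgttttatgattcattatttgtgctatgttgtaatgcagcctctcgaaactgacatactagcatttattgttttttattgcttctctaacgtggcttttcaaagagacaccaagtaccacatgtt
A total of 4 motifs were searched, on both strands and with these sequences in view. The first was IR-1, the FXR-RXR element, in which AGGTCA and its reverse complement flank a single base, allowing 2 mismatches. The second was a single arm, AGGTCA, without mismatch, which overlaps the repeat. The third was TCAAGG, the core recognised by LRH-1 (Nr5a2). The last was the palindromic HNF1 element, allowing 1 mismatch.

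Fabp6 held matches to the inverted repeat at 222 to 210 and at 142 to 130 bases before the start. Among all 32851 windows, 0.959% had such a match. A single arm stood at 58 to 53 bases in Slc51a and at 203 to 198 bases in Slc51b (and in the windows of Nr1h4 and Abcc2), against 14.0% of all windows with that arm. Nr0b2 held the LRH-1 core at 68 to 63 and at 35 to 30 bases, and 12.5% of windows held it. The HNF1 element lay at 224 to 212 bases in Slc10a2, against 0.189% of windows. These are letter matches, and no binding was measured.

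The libraries held 16245982 to 17959658 reads per mutant and 16119639 to 24009157 per WT sample. Levels are given as CPM, reads per 1e6 reads after TMM scaling of library sizes. Pla2g12b itself had 133.8, 102, 107, 129 and 132 CPM in mutants 1 to 5, against 103, 104, 77.5 and 75.6 CPM in WT 1 to 4; RNA level does not check the mutation. Within a genotype, 4 pairs of libraries (mutants 2 and 3, mutants 4 and 5, WT 1 and 2, WT 3 and 4) were far closer to each other than the rest. Their counts had a chi-square per degree of freedom of 2.31 to 3.41, against 29.2 to 67.8 in the other 12 pairs. They exceed sampling noise and the labels number separate mice, so n counts libraries. The labels name no reason for the closeness, and p-values measure the spread between libraries, part of which may be technical. The value of each tested bile acid gene is therefore given also with the counts of each pair summed, leaving 3 mutant and 2 WT units.

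In mutant duodenum 4 of the 9 bile acid genes rose (Slc10a2, Slc51a, Slc51b and Nr1h4) and 0 fell. Abcc2, Abcc3 and Nr0b2 were tested and not called, with negative log2 fold changes, and Fabp6 and Fgf15 had too few reads for the test. Over all genes in the table, 15.4% of 15416 tested genes rose and 17.1% fell, in edgeR's quasi-likelihood test at an adjusted p under 0.05. The median log2 fold change was 0.31 over the 7 tested bile acid genes and 0.01 over all tested genes. For Slc51a, Slc51b and Nr1h4, every mutant library lay above every WT library, a pattern found in 14.4% of tested genes; the reverse pattern, found in 16.5%, was shown by none of the 7 tested members. With the close pairs summed, 0 of the 9 were called in either direction in edgeR (4 higher and 0 lower at an unadjusted p under 0.05), against 2.23% of all genes called higher and 6.78% lower. Of the 3 negative fold changes, 2 had an unadjusted p under 0.05 over 9 libraries in edgeR, and DESeq2 called 1 of them, Abcc3, lower. Over all genes DESeq2 called 3039 lower. The share of all genes at an unadjusted p under 0.05 was not counted, so these unadjusted counts have no background to be set against.

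**Figure D1:**
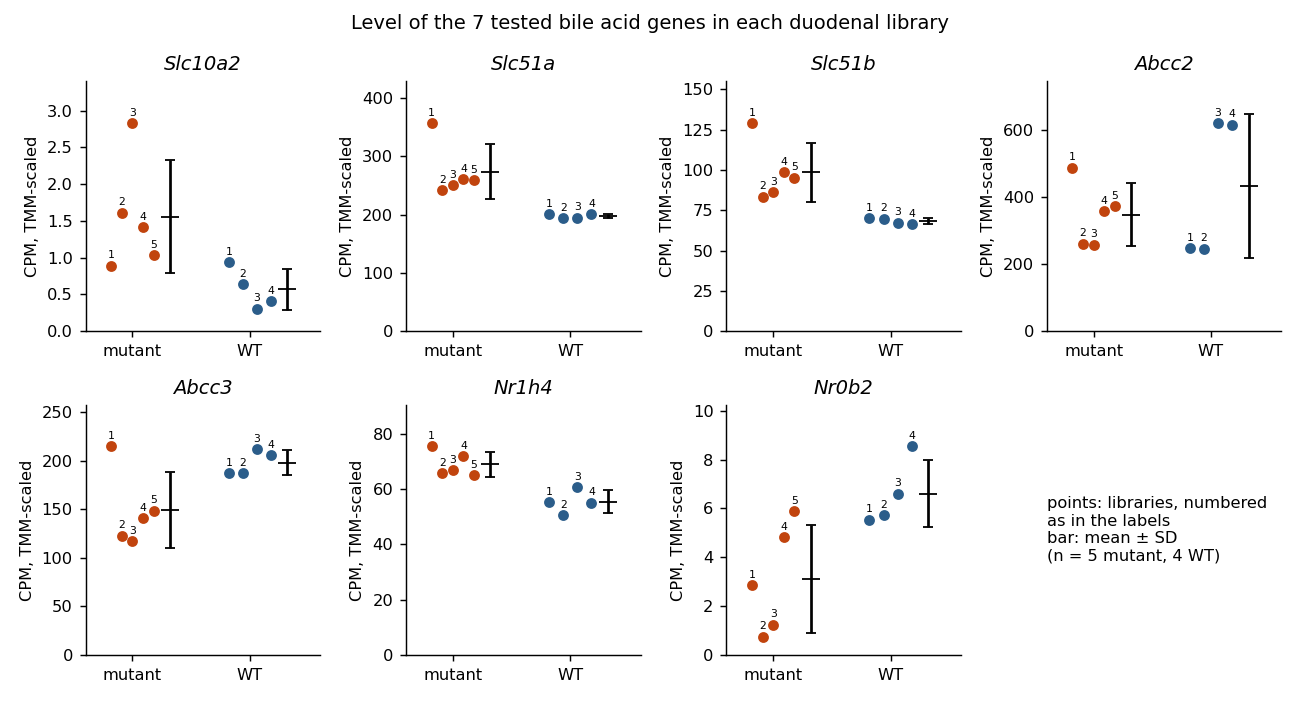
TMM-scaled CPM (y axes, linear from 0) of the 7 tested genes in each mutant and WT library; numbers beside points are the mouse numbers in the labels, and bars give mean and SD (n = 5 mutant, 4 WT). The groups stand apart for Slc51a, Slc51b and Nr1h4, while WT 3 and 4 hold 622 and 616 CPM of Abcc2 against 247 and 246 CPM in WT 1 and 2.

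Slc10a2 (ENSMUSG00000023073, chromosome 8, 5083219 to 5105351, minus strand, GRCm38), the apical importer, was read 14, 30, 48, 24 and 18 times in mutants 1 to 5 and 23, 11, 5 and 7 times in WT 1 to 4. That is 0.891, 1.61, 2.84, 1.41 and 1.04 CPM in the mutants, against 0.937, 0.638, 0.309 and 0.409 CPM in WT. Mutant 3 was the highest and WT 3 and 4 the lowest libraries, and the groups overlapped, since mutant 1 lay under WT 1. The means were 1.56 ± 0.770 CPM in mutants and 0.573 ± 0.279 CPM in WT (SD, n = 5 and 4), a log2 fold change of 1.39 (SE 0.43, adjusted p = 0.027). The call rests on 134 mutant and 46 WT reads. It was lost without WT 2 (adjusted p = 0.053), WT 3 (0.076), WT 4 (0.076) or mutant 3 (log2 fold change 1.07, 0.058). With close pairs summed the value was 1.31 (SE 0.55, adjusted p = 0.18), and without mutants 2 and 3 it was 0.92 (SE 0.42, adjusted p = 0.11). With the pair as a random block in voom it was 1.20 (SE 0.69, adjusted p = 0.26).

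Fabp6 (ENSMUSG00000020405, chromosome 11), the ileal bile acid binding protein, had 2, 1, 0, 0 and 2 reads in mutants 1 to 5 and 0 reads in each WT library. The 5 mutant reads correspond to 0.0187 to 0.134 CPM (95% exact Poisson interval, counting error only), and 0 WT reads allow up to 0.0407 CPM at 3 reads over the group. A difference was not detectable at this depth. Other members of the binding protein family were abundant and higher. Fabp2, the intestinal fatty acid binding protein, averaged 3924 ± 681 CPM in mutants and 2374 ± 75.8 CPM in WT (SD, n = 5 and 4), and Fabp1, the liver type, 2861 ± 358 CPM and 1997 ± 106 CPM. Their log2 fold changes were 0.72 (SE 0.13) and 0.52 (SE 0.11), both called. Fabp5 fell, with 3.10 ± 0.276 CPM in mutants and 4.78 ± 0.439 CPM in WT. None of these 3 calls held with close pairs summed (adjusted p = 0.062, 0.12 and 0.18 for Fabp2, Fabp1 and Fabp5).

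Both subunits of the basolateral exporter rose. Slc51a (ENSMUSG00000035699, chromosome 16, 32474504 to 32487879, minus strand) stood at 357, 242, 249.9, 260.2 and 259 CPM in mutants 1 to 5, against 200.4, 193, 195 and 200.1 CPM in WT 1 to 4. WT libraries lay within a narrow band, every mutant library lay above it, and mutant 1 stood above the other mutants. The means were 273 ± 47.4 CPM in mutants and 197 ± 3.65 CPM in WT (SD, n = 5 and 4), a log2 fold change of 0.47 (SE 0.11, adjusted p = 0.0065). Slc51b (ENSMUSG00000053862, chromosome 9, 65412714 to 65422955, minus strand) stood at 129, 83.4, 86.0, 98.7 and 95.1 CPM in mutants 1 to 5, against 70.0, 69.8, 67.3 and 66.1 CPM in WT 1 to 4. Again no mutant library overlapped WT, and mutant 1 was the highest. The means were 98.5 ± 18.3 CPM in mutants and 68.3 ± 1.90 CPM in WT (SD, n = 5 and 4), a log2 fold change of 0.53 (SE 0.12, adjusted p = 0.0049). With close pairs summed the log2 fold changes were 0.55 and 0.61 and the calls were lost (adjusted p = 0.094 and 0.073), as they were without WT 3 and 4 (0.055 and 0.059). The 3' end of Slc51a overlaps that of Pcyt1a, and Slc51b overlaps Rasl12, both on the other strand; the libraries do not mark strand, so reads there cannot be assigned.

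The ratio of Slc51b to Slc51a, in reads per kilobase within each library, was 1.63, 1.56, 1.55, 1.71 and 1.66 in mutants 1 to 5, against 1.58, 1.63, 1.56 and 1.49 in WT 1 to 4. The groups overlapped, with means of 1.62 ± 0.0679 and 1.56 ± 0.0564 (SD, n = 5 mutant and 4 WT). The difference of 0.05 on the log2 scale did not pass a 2-sided exact permutation test of the libraries (p = 0.22; adjusted over 2 ratios, 0.42), nor with the 3 mutant and 2 WT units (exact p = 0.4, where the smallest possible is 0.1). Mutant 1, which held the most of both subunits, thus had a ratio inside the range of the other mutants. Among 12483 protein-coding genes that averaged 1 CPM or more, the gene whose centred log2 CPM lay nearest to that of Slc51a over the 9 libraries was Slc51b, and the nearest to Slc51b was Slc51a. Their mean absolute difference was 0.049 on the log2 scale. Next came Metrnl (0.053) and the chaperone Hspa5 (0.054) for Slc51a, and the anion exchanger Slc26a3 (0.052) and the aspartoacylase Aspa (0.052) for Slc51b. Nearest to Slc10a2, at larger distances, were the squalene synthase Fdft1 (0.27), Mcoln3 (0.28) and Bcl2l15 (0.29). These distances describe 9 libraries that share a genotype difference and fall into close pairs.

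**Figure D2:**
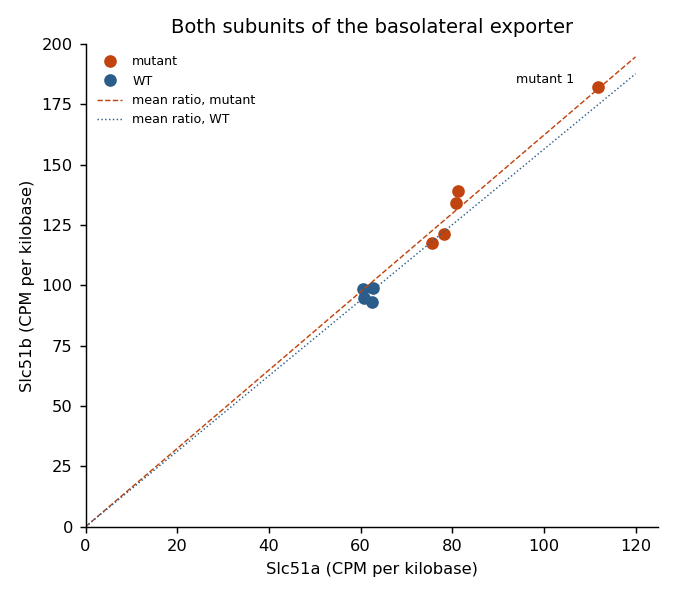
Slc51b against Slc51a, both in TMM-scaled CPM per kilobase of gene length (linear axes from 0), 1 point per mutant or WT library; lines show each genotype's mean ratio. Libraries lie along a common line, with ratios from 1.49 to 1.71 and mutant 1 at the upper end.

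Neither ABC exporter was called. Abcc2 (ENSMUSG00000025194, chromosome 19, 43782192 to 43840740, plus strand), the apical pump, had 488, 261, 258, 357 and 374 CPM in mutants 1 to 5, against 247, 246, 622 and 616 CPM in WT 1 to 4. The 2 WT pairs enclosed all mutant libraries. Means were 348 ± 94.8 CPM in mutants and 433 ± 215 CPM in WT (SD, n = 5 and 4), a log2 fold change of -0.32 (SE 0.35, adjusted p = 0.53). Without WT 3 and 4 the sign changed, to 0.49 (SE 0.24, adjusted p = 0.18), and without WT 1 and 2 the value was -0.83 (SE 0.22, adjusted p = 0.025). With close pairs summed it was -0.22 (adjusted p = 0.82).

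Abcc3 (ENSMUSG00000020865, chromosome 11, 94343295 to 94392997, minus strand), the basolateral pump, had 215, 123, 118, 141 and 149 CPM in mutants 1 to 5, against 187, 187, 212 and 206 CPM in WT 1 to 4. Mutant 1 lay above all WT libraries and the other 4 mutants below all of them. Means were 149 ± 39.0 CPM in mutants and 198 ± 12.8 CPM in WT (SD, n = 5 and 4), a log2 fold change of -0.41 (SE 0.16, adjusted p = 0.064). Without mutant 1 it was -0.60 and called (adjusted p = 0.0011). DESeq2 called it over all 9 libraries (-0.41, adjusted p = 0.045), while with close pairs summed it was -0.30 (adjusted p = 0.46). The ratio of Abcc3 to Abcc2 per kilobase was 0.592 to 0.706 in mutants, against 1.14 in WT 1 and in WT 2, 0.511 in WT 3 and 0.501 in WT 4. Mutant ratios fell between the 2 WT pairs, and the difference did not pass the exact permutation test (p = 0.42 before and after adjustment, and 0.8 over the 3 mutant and 2 WT units).

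Nr1h4 (ENSMUSG00000047638, chromosome 10, 89454234 to 89533585, minus strand), which encodes FXR, rose by the smallest amount of the 4 called genes. It had 75.4, 65.8, 66.7, 72.0 and 64.9 CPM in mutants 1 to 5, against 55.4, 50.6, 60.7 and 55.1 CPM in WT 1 to 4. The lowest mutant lay above the highest WT library. Means were 68.9 ± 4.54 CPM in mutants and 55.4 ± 4.12 CPM in WT (SD, n = 5 and 4), a log2 fold change of 0.31 (SE 0.07, adjusted p = 0.0073). With close pairs summed it was 0.34 (adjusted p = 0.11), 0.33 (0.064) when voom took the pair as a random block, and 0.25 (0.063) without WT 1 and 2. The genes nearest to it in centred log2 CPM were the mitochondrial enoyl-CoA hydratase Echs1 (mean absolute difference 0.040), Pigw (0.044) and Ccnyl1 (0.044). Slc51a came at rank 587 of 12483 (0.097) and Slc51b at rank 2088 (0.13). Counted from the other side, Nr1h4 stood at rank 155 for Slc51a and at rank 688 for Slc51b.

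Nr0b2 (ENSMUSG00000037583, chromosome 4, 133553376 to 133556536, plus strand), the FXR target that encodes SHP, had 2.87, 0.753, 1.24, 4.83 and 5.89 CPM in mutants 1 to 5, against 5.54, 5.74, 6.61 and 8.54 CPM in WT 1 to 4. Mutants 1 to 4 lay below all WT libraries and mutant 5 within the WT range. Means were 3.12 ± 2.22 CPM in mutants and 6.61 ± 1.37 CPM in WT (SD, n = 5 and 4), a log2 fold change of -1.08 (SE 0.49, adjusted p = 0.12). It passed the threshold without mutant 5 (-1.45, adjusted p = 0.043) and without mutants 4 and 5 (-2.04, adjusted p = 0.0039), and stood at -0.53 (adjusted p = 0.15) without mutants 2 and 3. With close pairs summed it was -1.09 (adjusted p = 0.33). Fgf15 (ENSMUSG00000031073, chromosome 7), the ileal hormone, had 0 reads in all 5 mutants and 1 read over the 4 WT libraries. In mutants 0 reads allow up to 0.0425 CPM (95% exact Poisson interval on read totals without TMM scaling). At 3 reads over the mutant group the level would be 0.0346 CPM. Nr1h4 and Nr0b2 thus had fold changes of opposite sign, of which only that of Nr1h4 was called, and whether the 2 differ from each other was not tested.

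Per kilobase of gene length, Slc51b was the most abundant of the 9 genes in both genotypes, with 139 ± 25.8 CPM per kilobase in mutants and 96.3 ± 2.68 in WT (SD, n = 5 and 4). Slc51a followed with 85.5 ± 14.8 in mutants and 61.6 ± 1.14 in WT, below Slc51b in every library. Abcc2 came next, at 40.7 ± 11.1 CPM per kilobase in mutants and 50.7 ± 25.2 in WT. In mutants Nr1h4 (29.9 ± 1.97) and Abcc3 (26.2 ± 6.84) had overlapping ranges, and that of Nr1h4 also overlapped the range of Abcc2. In WT Abcc3 (34.8 ± 2.25) lay above Nr1h4 (24.1 ± 1.79) in every library, while the range of Abcc2 took in both Slc51a and Abcc3. Nr0b2 was at 2.75 ± 1.96 CPM per kilobase in mutants and 5.84 ± 1.21 in WT. The importer Slc10a2 was at 0.375 ± 0.185 in mutants and 0.138 ± 0.0671 in WT. In mutants its range overlapped those of Nr0b2 and Fabp6, and in WT it lay below Nr0b2 in every library.

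The levels were then set against markers of the cells a duodenal sample holds. Of 12 structural genes of the intestinal epithelium, 5 rose (among them Krt18 and Epcam) and 0 fell, with a median log2 fold change of 0.28. With close pairs summed the Krt18 call held and the Epcam call was lost (adjusted p = 0.10). Vil1, the defining marker of enterocytes, was not called (0.17, SE 0.12, adjusted p = 0.30). The summed level of the 12 genes was 17120 to 20755 CPM in mutants, against 13795 to 16649 CPM in WT. In bulk RNA, more cells of a type and more RNA per cell cannot be told apart. Per 1000 reads of these genes, Slc51b had 4.87 to 6.22 reads in mutants and 4.20 to 4.82 in WT, and the groups did not overlap. Slc51a had 14.1 to 17.2 reads in mutants and 11.7 to 14.5 in WT, and Nr1h4 3.63 to 4.11 and 3.07 to 4.34, both overlapping. Abcc3 had 6.83 to 10.4 reads in mutants and 11.3 to 15.2 in WT, with no overlap. For Slc10a2, Nr0b2 and Abcc2 the groups overlapped. The share of all genes without overlap on this measure was not counted.

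With library sizes scaled on the 12 epithelial genes in place of TMM, the median of all genes shifted by -0.25 on the log2 scale. Among all tested genes, 3.20% were then called higher and 27.7% lower, against 15.4% and 17.1% under TMM. None of the 9 was called higher in edgeR under this scaling. At an unadjusted p under 0.05, 3 were higher, for which no share over all genes was counted. Abcc3 was called lower at -0.69 (SE 0.13, adjusted p = 0.0019). The log2 fold change was 1.20 for Slc10a2 (adjusted p = 0.051), 0.27 for Slc51b (0.055), 0.21 for Slc51a (0.11) and 0.06 for Nr1h4 (0.73). The median of all genes stood at -0.24 under this scaling and at 0.01 under TMM.

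**Figure D3:**
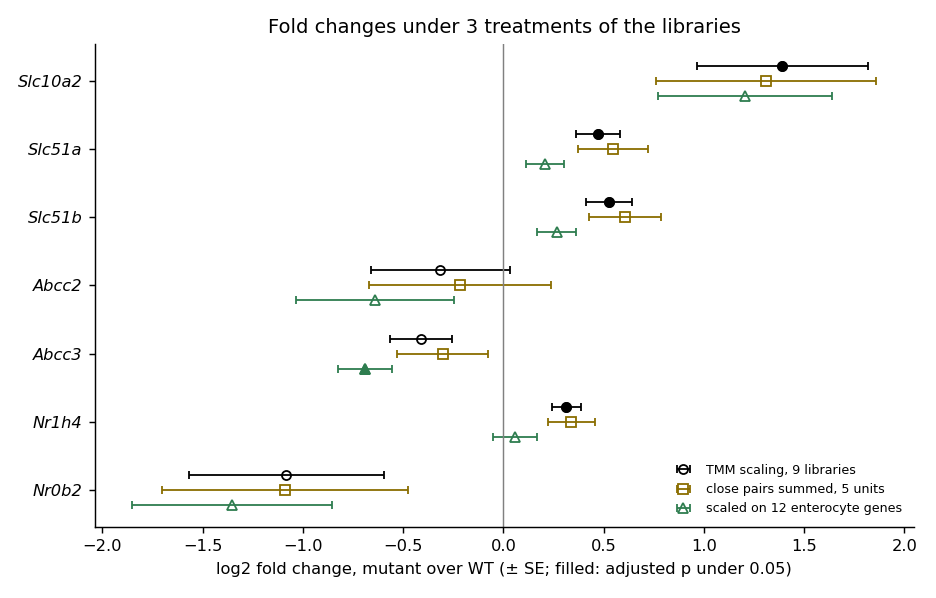
Log2 fold change, mutant over WT, with SE, of the 7 tested genes under TMM scaling (circles), with close pairs summed (squares) and with scaling on 12 epithelial genes (triangles); filled symbols passed an adjusted p under 0.05. Slc10a2, Slc51a, Slc51b and Nr1h4 are filled only under TMM scaling, and Abcc3 only under epithelial scaling.

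Markers of liver and bile duct, which also make several of these proteins, were looked at for carry-over. Alb, the hepatocyte albumin, had 0.700 to 1.47 CPM in mutants and 0.529 to 1.79 CPM in WT, and the fibrinogen gene Fgb 0 to 0.236 and 0 to 0.123 CPM. Of 5 tested hepatocyte markers 2 fell and 0 rose, and all 12 together summed to 11.7 to 13.6 CPM in mutants and 12.6 to 19.5 CPM in WT. Of 6 tested bile duct markers, which gut epithelium also expresses, Cftr rose (0.40, SE 0.09), Spp1 fell and the rest were not called, and their sum was 444 to 524 CPM in mutants and 322 to 496 CPM in WT. Pancreatic RNA differed far more. The 18 genes of the acinar list (1 of which, Zg16, goblet cells also make) all fell, and took 0.0161% to 0.0406% of reads in mutants and 4.06% to 8.19% in WT. Among WT libraries WT 3 and 4 held the most acinar RNA and the most Abcc2. Across genotypes the order differed. WT 1 and 2 held 40082 and 39344 CPM of acinar genes but less Abcc2 (247 and 246 CPM) than every mutant. Mutant 1 held the least acinar RNA, 177 CPM, and the most Abcc2 of the mutants, 488 CPM. The part of pancreatic RNA in the Abcc2 level was not tested. Removing acinar and immunoglobulin genes before the fit left the same 4 genes called.

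Genes that mark position along the small intestine differed between libraries of the same genotype. Pdx1, a transcription factor of the proximal duodenum and pancreas, had 12.6, 2.58, 2.01, 29.8 and 32.4 CPM in mutants 1 to 5, against 16.7, 16.3, 47.4 and 45.1 CPM in WT 1 to 4. Osr2, a transcription factor in the list of distal genes, had 16.6, 27.2, 29.1, 13.7 and 14.0 CPM in the mutants, against 8.59, 8.99, 0.0617 and 0 CPM in WT. Both were picked after their values were seen, for the order of their libraries. WT 3 and 4 combined the lowest Slc10a2 with the highest Pdx1 and the lowest Osr2, and mutants 2 and 3 the highest Slc10a2 with the lowest Pdx1 and the highest Osr2. Mutant 1 departed from that order, with the least Slc10a2 of the mutants and less Pdx1 than mutants 4 and 5. Other genes of the same lists ran the other way. The distal hormone gene Pyy was highest in WT 3 and 4, at 3.27 and 3.04 CPM, against 0.0577 to 0.522 CPM in the other 7 libraries, and the proximal lactase gene Lct was lowest there, at 1292 and 1274 CPM. Of 12 proximal genes, 6 were highest and 3 lowest in both WT 3 and WT 4. Of 7 distal genes other than the members, 1 was highest and 3 lowest there. In mutants 2 and 3, 7 proximal genes were lowest and 0 highest, and of the distal genes Osr2 was highest and Cubn lowest. Among the members, Nr0b2 was also lowest in mutants 2 and 3 (0.753 and 1.24 CPM) and highest in WT 3 and 4 (6.61 and 8.54 CPM). Abcc2 was highest in WT 3 and 4 (622 and 616 CPM) and lowest in WT 1 and 2 (247 and 246 CPM). The part of sampling position in the Slc10a2, Nr0b2 and Abcc2 values was not tested.

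**Figure D4:**
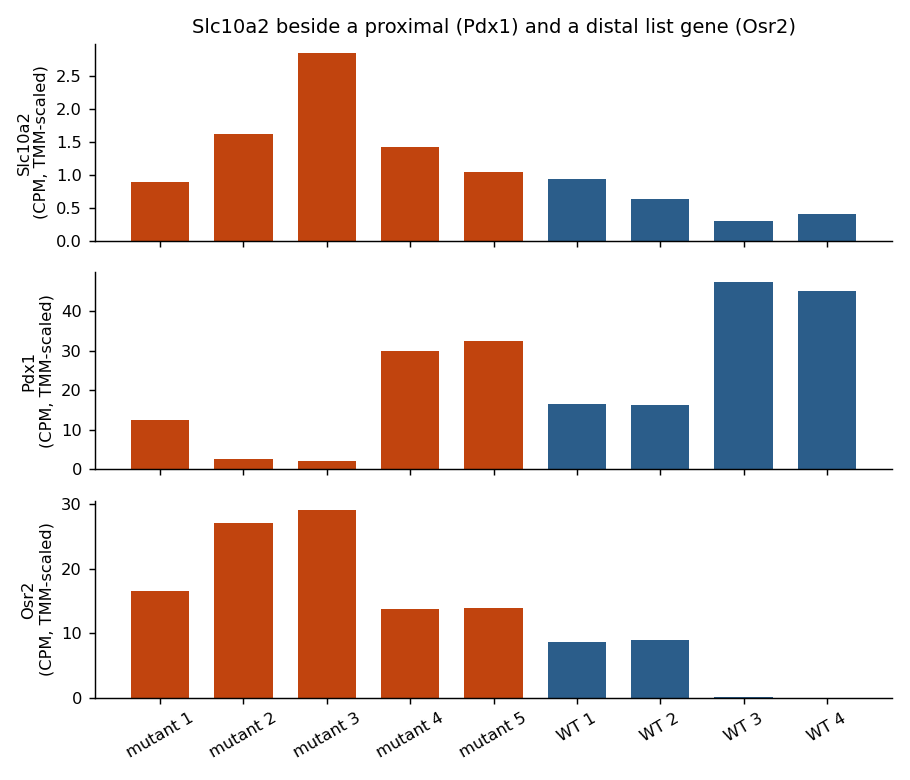
TMM-scaled CPM (bars, y axes from 0) of Slc10a2, the proximal list gene Pdx1 and the distal list gene Osr2 in each library, mutants at left and WT at right. WT 3 and 4, with 47.4 and 45.1 CPM of Pdx1, have the least Slc10a2, and mutants 2 and 3, with 2.58 and 2.01 CPM, the most.

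Of 8 tested genes in the distal list, 4 rose, namely Slc51b, Slc51a, Slc10a2 and Amn, the amnionless subunit of the cobalamin receptor. Amn averaged 196 ± 9.10 CPM in mutants and 133 ± 36.7 CPM in WT (SD, n = 5 and 4), a log2 fold change of 0.56 (SE 0.15), and its call was lost without WT 3 (adjusted p = 0.056) and with close pairs summed (0.11). Ang4, a product of Paneth cells, fell. Cubn, the partner of Amn, was not called. In the proximal list, 3 of 12 rose and 1 fell. Rbp2, the retinol binding protein of enterocytes, averaged 4919 ± 312 CPM in mutants and 2864 ± 128 CPM in WT (SD, n = 5 and 4), and the sterol transporter Npc1l1 809 ± 76.5 and 603 ± 34.5 CPM. Fabp1 was the other riser, and the hormone gene Cck fell (-0.77, SE 0.10). With close pairs summed the calls of Npc1l1 (adjusted p = 0.10) and Fabp1 (0.12) were lost, while those of Rbp2 and Cck held. Scaling on the 12 epithelial genes also removed the calls of Npc1l1 (0.073) and Fabp1 (0.11). Gata4, which represses the ileal programme including Slc10a2 in the proximal gut, had 138 to 172 CPM in mutants and 166 to 174 CPM in WT, a log2 fold change of -0.12 (SE 0.08, adjusted p = 0.26). Members of both regional lists therefore rose. The medians were 0.54 over the distal list, which shares 3 of its risers with the bile acid genes, and -0.18 over the proximal list.

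**Figure D5:**
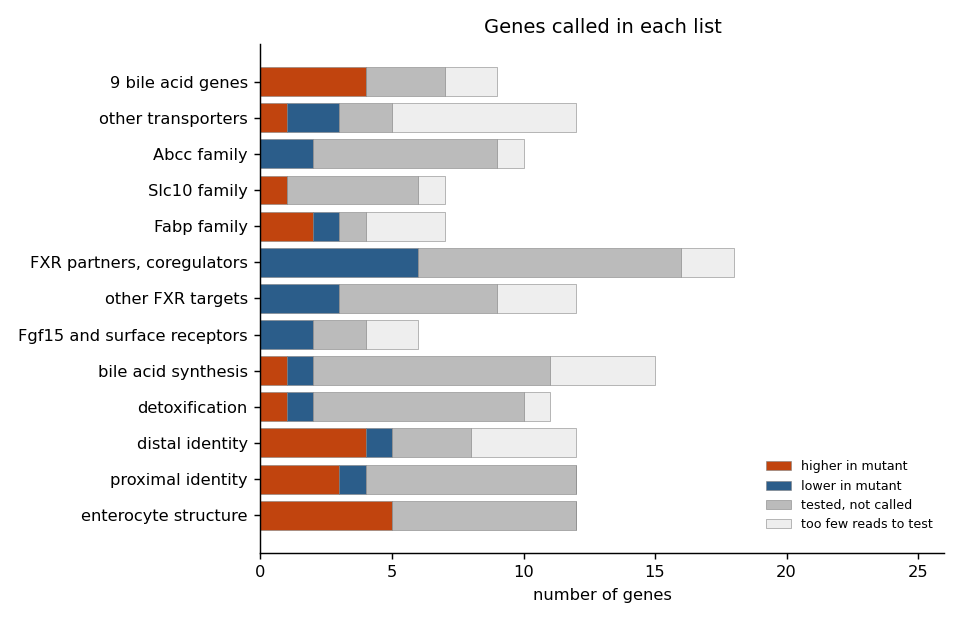
Number of genes (x axis) in the 9 bile acid genes and in 12 further lists that rose, fell, were tested without a call, or had too few reads, in edgeR's test of mutant against WT over 9 libraries. Of the bile acid genes 4 rose and 0 fell, and FXR partners and coregulators held 0 risers and 6 genes that fell. Over all tested genes 15.4% rose and 17.1% fell. None of the calls in these 2 lists held with close pairs summed. Some genes stand in more than 1 list.

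Other transporters of bile acids and related compounds held 1 riser and 2 genes that fell among 5 tested of 12. Abcc4 (MRP4), a further organic anion exporter, fell to 1.59, 2.04, 2.60, 1.12 and 1.44 CPM in mutants 1 to 5, against 6.72, 6.32, 5.68 and 6.20 CPM in WT 1 to 4. All mutant libraries lay below all WT libraries, with a log2 fold change of -1.82 (SE 0.23, adjusted p = 0.00014). That call held with close pairs summed and in each of the other alternatives. Slco2b1, an organic anion importer, fell by 0.32 (SE 0.09), and Abcg2, an apical exporter, rose by 0.32 (SE 0.11, adjusted p = 0.0497). The Slco2b1 call was lost without WT 3 (0.065) or WT 4 (0.052) and with close pairs summed (0.17). The Abcg2 call was lost in 18 of 25 alternatives, among them leaving out any single WT library (adjusted p = 0.051 to 0.14) or mutant 1, 4 or 5 (0.091 to 0.11). Abcb11, the bile salt export pump of hepatocytes, had 16 reads over the mutants and 8 over WT. In the Abcc family 2 of 9 tested genes fell, Abcc4 and Abcc1, and 0 rose. Abcc1 fell by 0.52 (SE 0.16), a call lost on leaving out WT 1 (adjusted p = 0.070), WT 2 (0.065), WT 4 (0.066), mutant 4 (0.062) or mutant 5 (0.061), and with close pairs summed (0.21). The Slc10 family held 6 tested genes, of which Slc10a2 was the only one called.

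Among 16 tested partners and coregulators of FXR, 0 rose and 6 fell, with a median log2 fold change of -0.13. Rxra, the main heterodimer partner, had 227 to 261 CPM in mutants and 238 to 258 CPM in WT, a log2 fold change of -0.02 (SE 0.07, adjusted p = 0.84). The coactivators Ncoa3 and Ncoa2 fell by 0.41 (SE 0.07) and 0.33 (SE 0.08), and the arginine methyltransferase Carm1 fell by 0.36 (SE 0.11). The Carm1 call was lost on leaving out WT 2 (adjusted p = 0.051), WT 3 (0.054), WT 4 (0.066), mutant 4 (0.056) or mutant 5 (0.053). None of the 6 falls was called with close pairs summed.

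Of 9 tested genes reported as FXR targets in the liver or other tissues, 0 rose and 3 fell, with a median of -0.19. The phospholipid transfer protein Pltp averaged 2.12 ± 0.603 CPM in mutants and 10.8 ± 0.731 CPM in WT (SD, n = 5 and 4), with no overlap between libraries and a log2 fold change of -2.35 (SE 0.20, adjusted p = 1.1e-05). The lipoprotein receptor Vldlr fell by 1.74 (SE 0.29) and the autophagy receptor Sqstm1 by 0.60 (SE 0.08), and these 3 calls held with close pairs summed. Macrophage and dendritic cell markers were lower in the same libraries, with 10 of 11 falling, Itgam rising and a summed level of 89.7 to 165 CPM in mutants and 816 to 909.9 CPM in WT. Endothelial markers summed to 33.3 to 65.1 CPM in mutants and 147 to 168 CPM in WT, with 8 of 9 falling. The part of these cells in the lower Pltp, Vldlr and Abcc4 was not tested.

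On the side of bile acid signalling at the cell surface, 2 of 4 tested genes fell and 0 rose. They were the receptors Fgfr1, with 6.45 ± 2.69 CPM in mutants and 15.1 ± 2.39 CPM in WT (SD, n = 5 and 4), and S1pr2, with 1.18 ± 0.456 and 2.67 ± 0.488 CPM. Of 8 stromal markers 7 fell in the same libraries and 0 rose, with a summed level of 68.7 to 183 CPM in mutants and 294 to 331 CPM in WT. Mutants 4 and 5 held the least of both these markers and Fgfr1. Within WT the order was the reverse. WT 3 and 4 held 294 and 295 CPM of stromal markers, against 326 and 331 CPM in WT 1 and 2. Their Fgfr1 was 17.4 and 16.7 CPM, against 12.3 and 14.1 CPM. The part of stromal cells in the lower Fgfr1 was not tested. Klb, the coreceptor for FGF15, had 9 reads over the mutants and 63 over WT, too few for the test. Fgfr4, the FGF15 receptor, was at 4.81 ± 1.30 CPM in mutants and 4.34 ± 0.976 CPM in WT, and Malrd1, which promotes Fgf15 output in mice, at 159.7 ± 18.5 and 143 ± 21.2 CPM; neither was called. For bile acid synthesis, 1 of 11 tested genes rose and 1 fell. Scp2, a sterol carrier with a peroxisomal thiolase form, rose by 0.40 (SE 0.09) and the oxysterol hydroxylase Cyp39a1 fell by 0.78 (SE 0.21). Cyp7a1, the rate-limiting enzyme of the liver, had 0 reads in all 9 libraries. In detoxification, the sulfotransferase Sult2b1 rose by 0.53 (SE 0.11) and Sult1a1 fell by 1.19 (SE 0.18), while 8 of 10 tested genes were not called, among them the xenobiotic receptor Nr1i2 and its target Cyp3a11. With close pairs summed, the calls of Scp2 (adjusted p = 0.13), Cyp39a1 (0.12), Sult2b1 (0.070), Fgfr1 (0.076) and S1pr2 (0.060) were lost.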

How the data were processed

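The deposited values are raw counts of reads per gene in 9 duodenal libraries, not normalized by the authors; all per-sample columns were used. Poly(A) RNA was primed with random hexamers and second strands were made with dTTP, per the labels' protocols, so strand is not marked. HISAT2 2.0.5 and featureCounts 1.5.0-p3 are named in the submitters' processing notes, beside the builds GRCh37, hg19 and mm39; for annotation, strand setting and shared reads the sources used here give nothing. Of 54532 gene coordinates 53585, and those of all 9 members, equal GENCODE M21 on GRCm38, the build printed here. The gene length in the deposited table, in bases, gave CPM per kilobase.

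Mutant was compared with WT in R 4.3.3 with edgeR 4.0.16 (TMM, default filter, robust quasi-likelihood test, genotype as only term). Benjamini-Hochberg adjustment ran over all 15416 genes that passed the filter, with calls at an adjusted p under 0.05. Adjusted p-values come from this fit where no other is stated. The standard error (SE) is the coefficient over the square root of the test statistic. Within-library ratios were compared by exact permutation. DESeq2 1.42.0 and voom in limma 3.58.1 were among the alternatives. The main fit, DESeq2, voom with quality weights and the fit on summed pairs were tested on simulated data. The simulated libraries were independent, without close pairs, and the other alternatives were not simulated. Totals give the depth. In a library 3 reads equal at most 0.186 CPM. Intervals cover counting error only, and these limits use read totals without TMM scaling.

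The members, the lists and the alternatives on close pairs were chosen with earlier results of these data known. Named genes are all members, up to 4 called genes per pathway list by smallest p, genes that touch a member (such as Rxra, Gata4 and Klb), and the 3 nearest genes by mean absolute difference of centred log2 CPM. One gene that this rule names is not reported here. Cell type lists are given by their counts and defining markers. Osr2, Pyy, Lct, Itgam, Spp1, Cubn, Abcb11, Nr1i2 and Cyp3a11 were named after their values were seen, as was Pdx1. Mouse numbers gave no pairing across genotypes.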

Additional observations from a re-analysis of the deposited data

Results flagged for a closer look

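In 18 groups of libraries examined (the 7 tested genes and 2 ratios in each genotype), 1 library stood apart by Dixon's test at the 95% level: mutant 1 held 357 CPM of Slc51a, against 242 to 260.2 CPM in the other mutants. For independent libraries chance would flag about 1 in 20 groups. That rate does not apply here, because every library except mutant 1 has a close partner. Without mutant 1 the log2 fold change of Slc51a was 0.34 and was still called.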

How the results depend on the processing

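Under 25 alternatives, no called bile acid gene changed sign. Of the 7 tested, the count called higher over the members was 4. It was 0 with enterocyte scaling and with close pairs summed, 2 with the pair as a random block, 1 without WT 3 and 4, and 3 to 4 leaving out single libraries. The count called lower was 0, and 1 with library size alone, enterocyte scaling, DESeq2 or voom with quality weights (Abcc3 in each), with the replicate block or without mutants 4 and 5 (Nr0b2), and without WT 1 and 2 (Abcc2); it was 0 to 1 leaving out single libraries. Over all genes, 2369 were called higher and 2634 lower. Higher calls numbered 494 with enterocyte scaling, 385 with pairs summed, 1186 with the random block, 1451 without WT 3 and 4, and 1778 to 2280 leaving out single libraries. Lower calls numbered 4277, 1173 and 1650 under the first 3 of these, and 2271 to 2609 leaving out single libraries. They numbered 2705 with library size alone, 3039 with DESeq2 and 3676 with voom with quality weights. With the replicate block they were 2213, without mutants 4 and 5 2417, and without WT 1 and 2 2215. The log2 difference of the Slc51b to Slc51a ratio was 0.03 to 0.07 and that of Abcc3 to Abcc2 -0.43 to -0.04 leaving out single libraries. The causes were not tested, except that summing pairs and leaving out libraries leaves fewer samples.

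Same-numbered mice of the genotypes had correlations of deviations from the group mean of -0.16 to 0.17, against -0.20 to 0.18 for other pairs, so the numbers do not pair them. The close pairs did share an order. Mutants 2 and 3 correlated at 0.12 to 0.17 with WT 1 and 2, and at -0.16 to -0.13 with WT 3 and 4. Mutants 4 and 5 correlated at -0.20 to -0.13 with WT 1 and 2, and at 0.14 to 0.18 with WT 3 and 4. Mutant 3 and WT 3, which share a number, stood at -0.16. With the mouse number as a replicate block, mutant 5 left out, 1711 genes were higher and 2213 lower; 3 members were higher, Slc10a2 losing its call (1.46, adjusted p = 0.059), and Nr0b2 was called lower (-1.65, adjusted p = 0.013). Fabp6 and Fgf15 had too few reads for the test, and Slc10a2 had the fewest reads of the called members.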
